A study of Mus musculus with 27 samples.

Results

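The genes described here are phagocytic receptors and integrins of the macrophage surface, with the adaptor chains and the ligand that work with them. They were chosen by symbol from the deposited count table, where 36 of 36 were found among 55483 genes. They comprise 7 integrin alpha chains, 5 integrin beta chains, the integrin ligand gene Icam1, 6 Fc receptor or ITAM adaptor genes, 6 scavenger or lipoprotein receptors, 3 receptors for apoptotic cells, 5 C-type lectins, the CD47 receptor Sirpa and 2 receptors for complement anaphylatoxins. Of these, 34 held enough counts to be tested in each comparison, and Itgb3 and Marco did not.

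The cells were RAW264.7, an established mouse macrophage line, kept for 6 h in 1 of 3 treatments. The control group received DMSO, the solvent. The second group received LPS, a bacterial cell wall lipopolysaccharide that activates macrophages, at 1 µg/ml together with DMSO. The third received LPS at 1 µg/ml with TM7nox at 10 µM, a tanshinone mimic, of a class of small molecules designed to keep the protein HuR off its target RNAs. Each treatment had 4 libraries of total RNA, 4 of RNA recovered with an anti-HuR antibody (ribonucleoprotein immunoprecipitation, RIP) and 1 of RNA recovered with control IgG. All cells came from 1 line, the labels do not say whether the numbered replicates were separate cultures, and p-values therefore measure the spread between these libraries, which may be technical.

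Phagocytic receptors bind particles directly or through opsonins. Fc receptors bind IgG on the particle and signal through adaptors with immunoreceptor tyrosine-based activation motifs (ITAMs), complement receptor 3 is the integrin pair of Itgam and Itgb2, and scavenger receptors and C-type lectins bind lipoproteins and microbial sugars. Mertk, Axl and Trem2 take part in the uptake of dying cells, and SIRPα, encoded by Sirpa, passes an inhibitory signal when it meets CD47 on another cell. HuR, an RNA-binding protein encoded by Elavl1, binds U-rich and AU-rich stretches, mostly in 3′ untranslated regions (UTRs), and is known for stabilising inflammatory mRNAs in macrophages.

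Library totals lay between 2728534 counts (total RNA, DMSO, replicate 1, the shallowest) and 41449233. No pair of replicates agreed within sampling noise, with a chi-square per gene of 38.0 to 213 over the 36 pairs. Levels are normalised read counts (CPM, counts scaled to a common library total) on 1 scale over all libraries. A call means that the adjusted p was under 0.05. The 7 macrophage markers summed to 3731 to 6672 CPM in total RNA. Markers of T cells, B cells, fibroblasts and epithelium summed to at most 0.385 CPM there, and Ly6g and Epcam were at 0. The 5 neutrophil markers reached 3.51 CPM, from S100a8 in LPS, the 4 dendritic cell markers 10.4 CPM, from Xcr1 in LPS, and the 3 endothelial markers 1.91 CPM. The part of these genes in the results was not tested. In such bulk libraries, fewer cells of a type and less RNA per cell cannot be told apart.

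Most of the receptors were well expressed, over a wide range. Per kilobase of annotated exon in DMSO RNA, the highest were Cd68, a lysosomal glycoprotein of macrophages, at 276 ± 56.4 CPM per kb, and the ITAM adaptors Tyrobp at 222 ± 65.3 and Fcer1g at 134 ± 24.5 (SD, n = 4 each). The spreads of Cd68 and Tyrobp overlapped. Itgb2, the beta chain shared by the leukocyte integrins, followed at 64.5 ± 10.3, with Itga4 at 63.9 ± 10.4 and Sirpa at 58.0 ± 6.68 CPM per kb, and these 3 did not differ beyond their spread. In LPS the order began with Cd68 at 300 ± 74.5, Fcer1g at 292 ± 30.1 and Tyrobp at 210 ± 53.5, and Itga5 came next at 109 ± 52.2 CPM per kb. Those 4 were not all separated by their spread either.

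Several members were at the edge of detection. Marco, a scavenger receptor, had 0 counts in DMSO RNA, 2 in LPS RNA and 0 in LPS+TM7nox RNA. Itgb3, the partner of αv in the vitronectin receptor, had 2, 9 and 17 counts over the 4 libraries of each group in the same order. Mertk, a receptor tyrosine kinase for apoptotic cells, reached at most 1.12 CPM in total RNA, and Itga6 at most 2.10 CPM. The plot of total RNA levels shows the spread of every tested member.

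**Figure D1:**
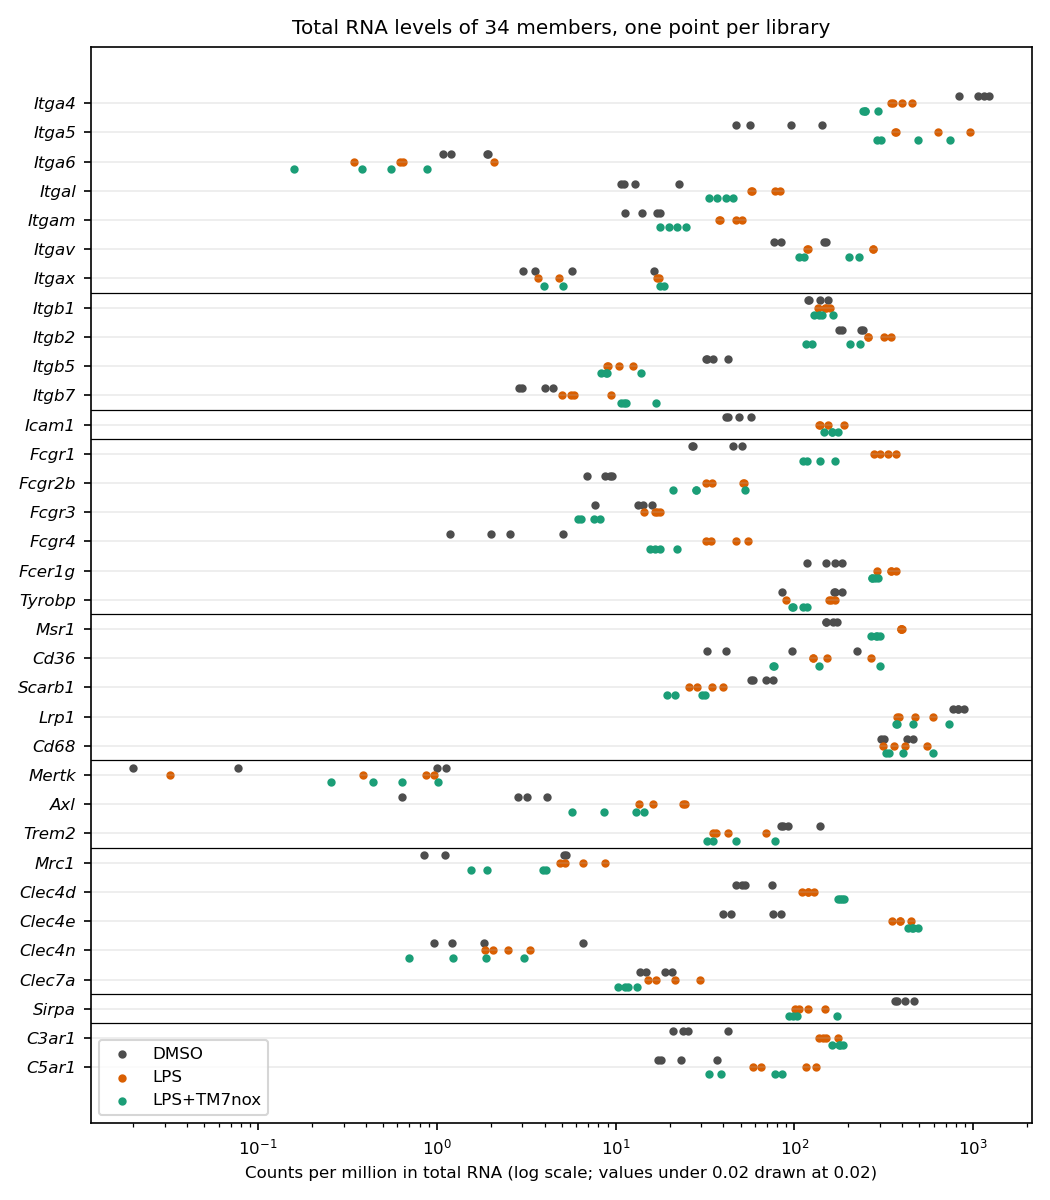
Total RNA level of each of the 34 tested members in CPM (log axis), with 1 point per library, coloured by treatment, and lines between the functional groups. Fcgr4 lies at 1.18 to 5.09 CPM in DMSO and 32.1 to 54.9 CPM in LPS, while Itgb1 stays between 119 and 163 CPM in all 12 libraries.

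Anti-HuR recovery was compared with total RNA of the same treatment, to show which receptor mRNAs came down with HuR. The TMM scaling used here makes a value relative to the typical gene. A small set of members was far above total RNA in all 3 treatments: the complement anaphylatoxin receptors C5ar1 and C3ar1, Sirpa, the integrin chain Itgav and the Fc receptor Fcgr4, with Itga6, the scavenger receptor Cd36 and Itgb1 less so. Most other members were below it, among them the integrins Itgax and Itgb2, the endocytic receptor Lrp1, Cd68 and Mrc1. In DMSO, 8 of 34 tested members were called higher in RIP and 19 lower (79.4%), against 70.4% of 14311 genes called, 37% higher and 33.4% lower. In LPS the numbers were 8 and 15 (67.6%), against 63.7% of all genes, 32.9% higher and 30.8% lower. In LPS+TM7nox they were 11 and 18 (85.3%), against 69.9%, 35.2% higher and 34.8% lower. The median log2 ratio of the members was -0.94, -0.54 and -0.90 in the 3 treatments, against 0.04, -0.06 and -0.09 for all genes tested.

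The 3′ UTRs of some of the members recovered most and least strongly are shown by the 30 bases that hold the most T, since U-rich stretches are what HuR is known to bind. Sequences are DNA letters of the transcript strand from GRCm39 with GENCODE M39 canonical transcripts, and capitals mark runs of at least 5 T. First come 6 members called higher in RIP in all treatments, then 5 called lower.
Sirpa: tttcTTTTTcTTTTTTgaTTTTTTTTcttt
C5ar1: tttcttttctatgtttgaTTTTTTTTTTTT
Itgav: cTTTTTTTTTTTTgtttgtttgTTTTTTTT
Fcgr4: TTTTTTgtttgtttgtttgtttgttttgtt
Itgb1: cttattttaccTTTTTTTTTTTctttaatt
Itga6: tttgtttgtatatgatatttaTTTTTTTct
Lrp1: acgttttaataaTTTTTgctgaattccttt
Itgb2: ttatattgttaacatcccatctgttgtatt
Itgax: tgttatcctcatttctaataaagtattgtt
Cd68: actcaacagttaccttccttctctgtcttt
Tyrobp: ctgagatatctgacattgtaccatttctgt

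These windows lie at chr2:129472845-129472874 on the plus strand for Sirpa, chr7:15981405-15981434 (minus) for C5ar1 and chr2:83636913-83636942 (plus) for Itgav. Fcgr4 is at chr1:170857019-170857048 (plus), Itgb1 at chr8:129459324-129459353 (plus) and Itga6 at chr2:71686955-71686984 (plus). Lrp1 is at chr10:127374102-127374131 (minus), Itgb2 at chr10:77401398-77401427 (plus), Itgax at chr7:127749793-127749822 (plus), Cd68 at chr11:69555104-69555133 (minus) and Tyrobp at chr7:30116953-30116982 (plus). The window of Itgav held 26 T of 30 bases, that of Sirpa 25, those of C5ar1 and Fcgr4 24, that of Itgb1 22 and that of Itga6 21. In the poorly recovered members the richest window held 16 T in Lrp1, 15 in Itgb2 and Itgax, 13 in Cd68 and 12 in Tyrobp. These 5 do not stand for every member called lower in DMSO: the richest window held 20 T in Mrc1 and Clec4d, 19 in Itgb5 and 17 in Fcer1g, and the range ran from 10 in Itgb7 to 24 in Itgal. A window with at least 24 T was present in 7 of 32 members with a 3′ UTR of at least 50 bases and a tested ratio, and in 13.5% of 10996 UTRs of tested genes. Itgal was among those 7.

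Across the 32 members, the number of TTTTT matches in the 3′ UTR (overlapping matches counted, transcript strand) ranked with the RIP over RNA ratio. Spearman's rho was 0.79 in DMSO, 0.73 in LPS and 0.78 in LPS+TM7nox, against 0.53, 0.53 and 0.57 over 10996 genes. The points share the same libraries and are genes, not replicates, so the rho is a description. UTR length alone gave 0.66 in DMSO for the members and 0.37 for all genes, and the T share gave 0.39 and 0.27. TTTTT was present in 26 of 34 member UTRs and in 81.2% of all UTRs, so that its presence alone separates few genes. ATTTA was present in 19 of 34 members and in 73.5% of all UTRs. TTATTTATT, which contains ATTTA, was in 4 members and in 9.23% of all UTRs. C5ar1 held 39 TTTTT matches in 1295 bases, Itgav 37 in 3581 and C3ar1 28 in 3389. Some members departed from the ranking: Itga4 held 30 matches at a log2 ratio of 0.25 in DMSO, Mrc1 held 17 at -2.14, and Fcgr4 held 4 at 3.11.

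**Figure D2:**
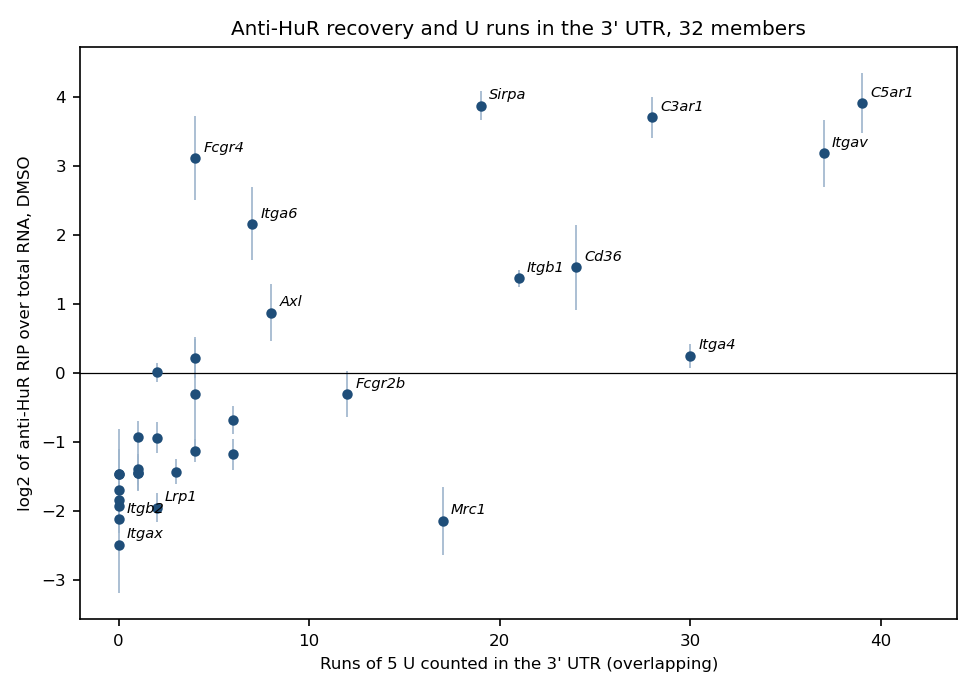
Number of overlapping runs of 5 U (TTTTT in the DNA sequence) in the 3′ UTR of 32 members against the log2 ratio of anti-HuR RIP over total RNA in DMSO, with bars for the SE. C5ar1, Itgav and C3ar1, with 28 to 39 matches, lie above 3, while Itga4 with 30 matches lies at 0.25 and Mrc1 with 17 at -2.14.

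Sirpa (ENSMUSG00000037902, chromosome 2, 129434039 to 129474148 on GRCm39) stood at 466, 364, 418 and 374 CPM in DMSO RNA and at 5258, 4458, 6277 and 5786 CPM in RIP (replicates 1 to 4 here and below). The groups were far apart, and the IgG library of DMSO held 314 CPM. Its log2 ratio of RIP over RNA was 3.87 (SE 0.21, adjusted p 2.43e-14) in DMSO, 3.69 in LPS and 3.95 in LPS+TM7nox. C5ar1 (ENSMUSG00000049130, chromosome 7, 15980668 to 15993465), the C5a receptor, stood at 36.9, 18, 23.2 and 17.2 CPM in DMSO RNA, at 477, 231, 286 and 280 CPM in RIP and at 14.9 CPM in IgG. The RIP libraries all lay above the RNA and IgG libraries. The log2 ratio was 3.91 (SE 0.44, adjusted p 1.99e-08) in DMSO, 4.42 in LPS and 4.67 in LPS+TM7nox. C3ar1 (ENSMUSG00000040552, chromosome 6, 122823393 to 122833122), the C3a receptor, stood at 42.4, 25.2, 23.8 and 20.9 CPM in DMSO RNA and at 516, 307, 279 and 205 CPM in RIP, without overlap. Its log2 ratio was 3.70 (SE 0.29, adjusted p 4.05e-11), 3.32 and 3.32.

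Itgav (ENSMUSG00000027087, chromosome 2, 83554403 to 83637260) encodes αv, the chain that pairs with several beta chains to bind vitronectin and bridging opsonins. It stood at 150, 147, 83.9 and 76.9 CPM in DMSO RNA and at 1352, 1235, 686 and 486 CPM in RIP. In both assays replicates 1 and 2 were higher than replicates 3 and 4, and its ratio was 8.99, 8.43, 8.18 and 6.33 within the numbers. The log2 ratio was 3.18 (SE 0.49, adjusted p 2.83e-06) in DMSO. Its exons overlap those of Gm13684 on the other strand. Fcgr4 (ENSMUSG00000059089, chromosome 1, 170846466 to 170857330), an activating Fc receptor, had a log2 ratio of 3.11 (SE 0.60, adjusted p 6.43e-05) in DMSO. It stood at 1.18 to 5.09 CPM in DMSO RNA and at 45.2, 12.3, 12 and 5.12 CPM in RIP. RIP replicate 1 was the high one, and without it the log2 ratio was 2.18. In LPS the ratio was 3.46 and in LPS+TM7nox 3.71. Fcgr2b, Fcgr3 and Fcgr4 are similar neighbours on chromosome 1, so the split of reads between them is uncertain.

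Itgb1, the partner of many alpha chains, was recovered above total RNA at 1.37 (SE 0.13, adjusted p 7.42e-10) in DMSO, 1.32 in LPS and 1.84 in LPS+TM7nox. Itga6 had 2.16, 1.51 and 2.29 and Cd36 1.53, 1.72 and 2.24 in the same order. Several calls of Cd36 and Itga6 rested on single libraries. For Cd36 in DMSO the adjusted p was 0.0312, and without RIP replicate 1 the log2 ratio was 0.69 with an adjusted p of 0.306, in a range of 1.42e-08 to 0.306 over 14 alternatives. Cd36 in DMSO was also not called without RNA replicate 2 (0.0501), 3 (0.0921) or 4 (0.0961). Without RNA replicate 1 its ratio was 2.17. In LPS, Cd36 (0.0899) and Itga6 (0.112) lost their calls without RIP replicate 1, and Itga6 also without RNA replicate 4 (0.0606), in ranges of 4.62e-14 to 0.0899 and 0.000102 to 0.112. Without RNA LPS replicate 1 the log2 ratio of Itga6 was 2.21. In LPS+TM7nox, Cd36 stood at 1.63 without RIP replicate 1.

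At the other end, Itgb2 stood at 241, 235, 184 and 177 CPM in DMSO RNA and at 58.7, 41.5, 39 and 37.3 CPM in RIP. All RIP libraries lay below the RNA libraries. Its log2 ratio was -2.12 (SE 0.21, adjusted p 2.84e-09) in DMSO, -1.37 in LPS and -1.56 in LPS+TM7nox. Lrp1, an endocytic receptor for many ligands, stood at 893, 774, 826 and 821 CPM in DMSO RNA and at 213, 175, 171 and 225 CPM in RIP, also apart, with a log2 ratio of -1.96 (SE 0.21, adjusted p 1.07e-08), -1.71 and -1.75. Itgax, the alpha chain of complement receptor 4, had -2.49 (SE 0.70, adjusted p 0.00281), -2.40 and -2.34, and in DMSO -1.58 without RNA replicate 2 and -3.42 without RIP replicate 2. Cd68 (-1.84, -1.40 and -1.94), Tyrobp (-1.70, -1.25 and -1.88) and Itgam (-1.44, -1.69 and -1.61) were called lower in all 3 treatments. Clec4n, a C-type lectin at 0.10 to 2.00 CPM in DMSO RIP, was called lower in DMSO (-1.47) and lost that call without RNA replicate 1 or 2 or RIP replicate 2, 3 or 4. Without RIP replicate 1, Clec4n stood at -2.71, and without RNA replicate 1 at -0.81 (adjusted p 0.247, in a range of 0.000221 to 0.247).

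**Figure D3:**
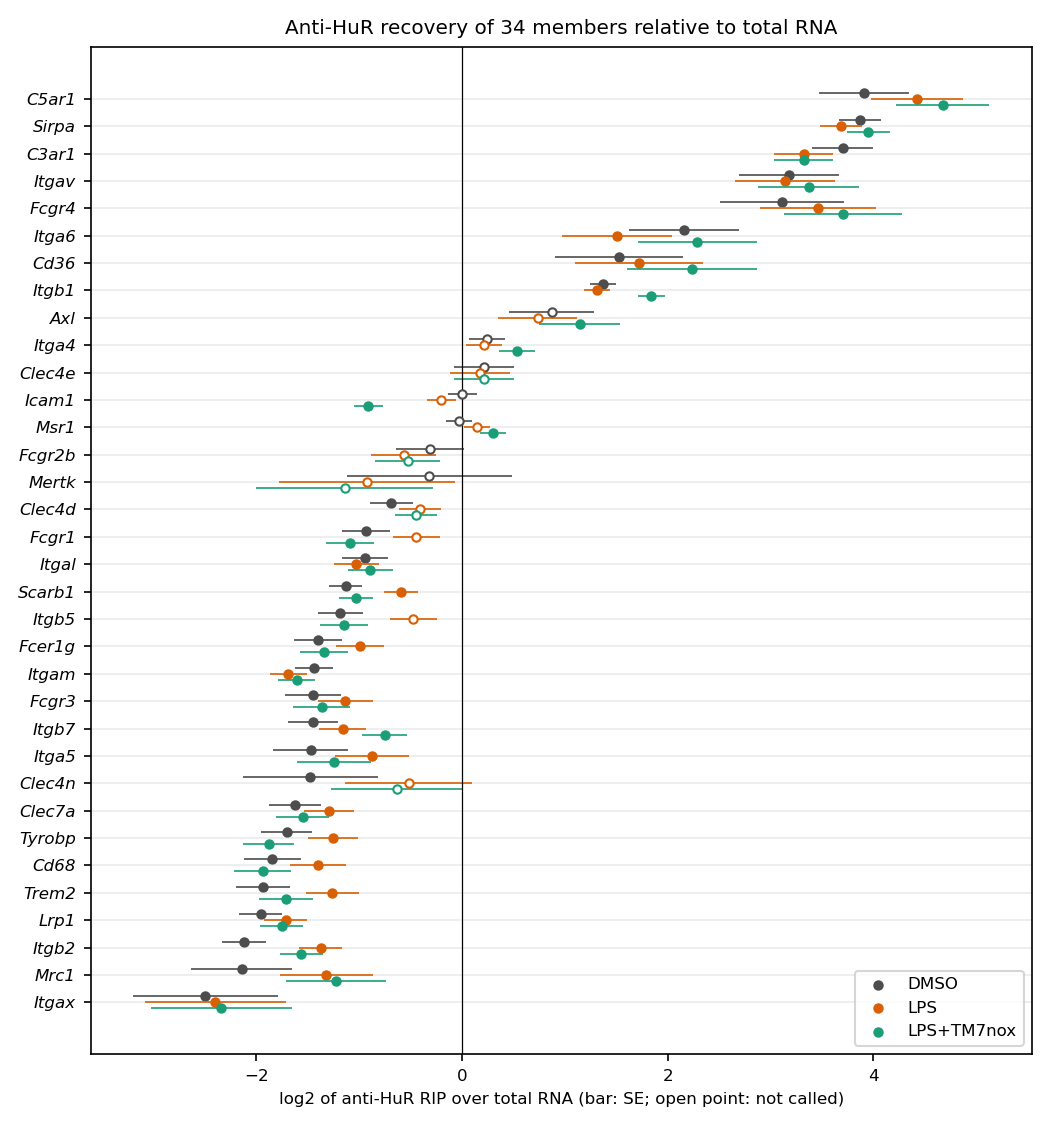
Log2 ratio of anti-HuR RIP over total RNA for the 34 tested members in each treatment, with the SE as a bar, filled points for calls and open points for no call. C5ar1, Sirpa, C3ar1, Itgav and Fcgr4 lie between 3.11 and 4.67, and Itgax lies between -2.49 and -2.34.

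Against control IgG, with treatment as a covariate, 8 members were called higher in anti-HuR and 19 lower (79.4%), against 68.1% of 14973 genes, 33.8% higher and 34.2% lower. The 8 higher members were again C5ar1 (log2 4.36, SE 0.43), Sirpa (4.15, SE 0.25), C3ar1 (3.82, SE 0.36), Fcgr4 (3.80, SE 0.68), Itgav (3.38, SE 0.52), Cd36 (2.65, SE 0.63), Itga6 (2.07, SE 0.51) and Itgb1 (1.13, SE 0.19). Both comparisons use the same RIP libraries, so the 2 sets of values are not independent. There was 1 IgG library per treatment, each of replicate 3, and the main fit sets these against RIP libraries of every number. That fit has no term for the number, so it cannot fully tell antibody from replicate number. With the replicate block, 30 members and 9761 of all genes were called. Replicates 3 and 4 alone called 30 members in place of 27, while the calls over all genes went from 10194 to 9507. Icam1, Scarb1 and Mertk were called lower (adjusted p 0.028, 0.00738 and 0.013), and each lost its call without 1 or more of the IgG libraries, in ranges of 0.00497 to 0.435, 0.0023 to 0.174 and 0.00418 to 0.243 over 20 alternatives. Icam1 lost it without the LPS (0.0768) or the LPS+TM7nox (0.435) IgG library, Scarb1 without that of DMSO (0.174), and Mertk without that of LPS (0.0765) or LPS+TM7nox (0.0803). Mertk was also not called with the replicate block (0.243) or in replicates 3 and 4 alone (0.0789). Icam1 also lost it without RIP LPS replicate 2 (0.0616), RIP DMSO replicate 3 (0.0528) or RIP LPS+TM7nox replicate 2 (0.0735) or 4 (0.095).

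The lowest member in this comparison was Fcgr1 (ENSMUSG00000015947, chromosome 3, 96190225 to 96201338), which encodes the high-affinity receptor for IgG. It stood at 311, 1751 and 799 CPM in the IgG libraries of DMSO, LPS and LPS+TM7nox. Total RNA of the same number and treatment held 45.4, 335 and 139 CPM, and anti-HuR RIP of that number 22.9, 244 and 67.9 CPM. The IgG libraries were above every RNA and RIP library of their treatment. The IgG to RNA ratio was 6.84, 5.23 and 5.73, ranks 13 of 8432, 12 of 8181 and 14 of 8155 genes, where the median gene had 0.922, 1.01 and 0.963. The log2 of anti-HuR over IgG was -3.59 (SE 0.19, adjusted p 1.23e-11), the twelfth lowest of 14973 genes. The related Fc receptors did not stand out in this way, with IgG to RNA ratios of 1.10 for Fcgr2b and 0.631 for Fcgr3 in DMSO.

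**Figure D4:**
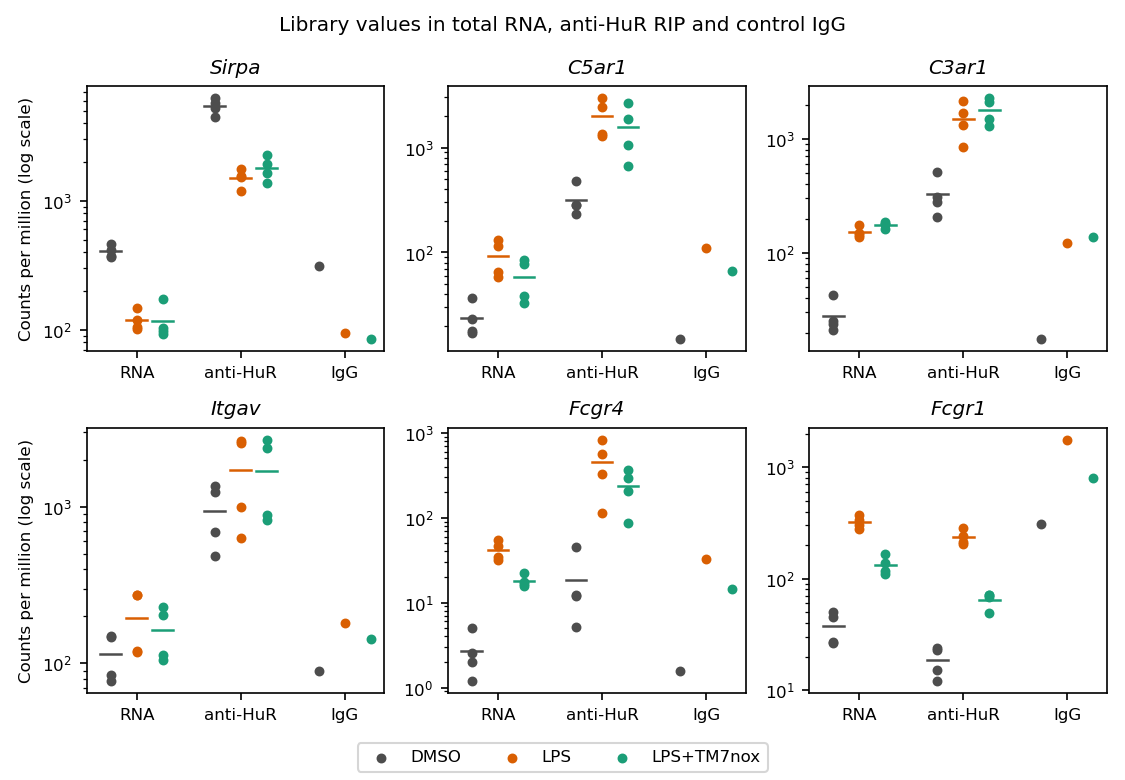
CPM (log axis) of 6 members in every library of total RNA, anti-HuR RIP and control IgG, coloured by treatment, with a line at the mean of each group of 4. Sirpa, C5ar1, C3ar1, Itgav and Fcgr4 are highest in anti-HuR RIP, and Fcgr1 is highest in IgG, at 311, 1751 and 799 CPM.

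Total RNA of LPS and DMSO was compared to describe the response of these genes to LPS. LPS raised Fcgr1, Fcgr2b, Fcgr4 and Fcer1g, the anaphylatoxin receptors C3ar1 and C5ar1, the C-type lectins Clec4d and Clec4e, and the integrin chains Itga5, Itgal, Itgam and Itgb7. It lowered Sirpa, Itgb5, Itga4, Trem2, Scarb1 and Lrp1. Of 34 members tested, 15 were called higher and 6 lower (61.8%), against 42% of 12369 genes. Higher calls took 44.1% of the members and 20.2% of all genes, and lower calls 17.6% and 21.7%. The libraries of the 2 groups did not overlap for any of the 21, nor for 84.8% of all called genes. The median log2 fold change was 0.75 for the members and -0.04 for all genes. There were 19 member calls within replicates 1 and 2 alone and 27 within replicates 3 and 4 alone, while the calls over all genes went from 5190 to 1668 and 7349.

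Among the 6 Fc receptor and adaptor genes, 4 rose and 0 fell. Fcgr4 stood at 5.09, 2.57, 1.99 and 1.18 CPM in DMSO and at 54.9, 46.9, 32.1 and 34.2 CPM in LPS, so that every LPS library exceeded every DMSO library. It rose by a log2 of 4.16 (SE 0.34, adjusted p 3.73e-07), the largest rise of the members. Fcgr1 stood at 26.7, 27, 45.4 and 50.7 CPM in DMSO and at 301, 280, 335 and 371 CPM in LPS, and rose by 3.06 (SE 0.22, adjusted p 8.78e-08). Fcgr2b, the inhibitory Fc receptor, rose by 2.28 and Fcer1g, the common ITAM chain, by 1.09. Fcgr3 (0.33, adjusted p 0.212) and Tyrobp (-0.11, adjusted p 0.726) were not called.

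Integrin chains moved in both directions. Itga5, the alpha chain of the fibronectin receptor, stood at 143, 95.7, 56.1 and 46.8 CPM in DMSO and at 954, 634, 372 and 367 CPM in LPS. The groups did not overlap, although replicates 1 and 2 were the higher in each, and Itga5 rose by a log2 of 2.74 (SE 0.44, adjusted p 0.000187). Itgal, of the LFA-1 receptor, rose by 2.29, Itgam by 1.5 and Itgb7 by 0.87, and Icam1, a ligand of both LFA-1 and complement receptor 3, by 1.68. Itga4, a chain of the VCAM-1 receptor, fell from 829, 1065, 1229 and 1152 CPM to 401, 454, 348 and 353 CPM, a log2 of -1.49 (SE 0.14, adjusted p 1.53e-06). Itgb5, a partner of αv, fell from 42.6, 32.1, 34.9 and 32.3 CPM to 12.5, 10.4, 9.03 and 8.89 CPM, a log2 of -1.82 (SE 0.19, adjusted p 4.17e-06). Both were separated without overlap. Itgb2 (0.46, adjusted p 0.112) and Itgb1 (0.12, adjusted p 0.475) were not called. Itga4 shares exonic sequence with Cerkl on the other strand and Itgam with Gm49368 on its own strand, so part of their counts is uncertain. The same holds for Itga6, Icam1, Fcgr2b, Scarb1, Lrp1, Mertk and Trem2, whose exons overlap those of other genes on the other strand.

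Sirpa fell from 466, 364, 418 and 374 CPM in DMSO to 148, 120, 106 and 101 CPM in LPS, a log2 of -1.81 (SE 0.21, adjusted p 9.43e-06). No LPS library reached the lowest DMSO library. The receptors for apoptotic cells parted, with Axl up by 2.68 (adjusted p 3.79e-05), Trem2 down at -1.16 (adjusted p 0.0066) and Mertk not called. Of the scavenger and lipoprotein receptors, Msr1 rose by 1.28, while Scarb1, the HDL receptor, was at -1.05 and Lrp1 at -0.90. Clec4e, also called Mincle, rose by 2.66 and its partner Clec4d by 1.05, and C3ar1 and C5ar1 rose by 2.42 and 1.95. Clec7a, the receptor for beta-glucan, was not called (0.27, adjusted p 0.336). With the replicate number as a block, 26 members and 6481 of all genes were called, adding Itgav (0.69), Itgb2 (0.46), Cd36 (1.09), Mrc1 (1.15) and Itga6 (-1.04). The adjusted p of these 5 ranged from 4.96e-07 to 0.802 over their 14 alternatives. Cd36 was also called without RNA DMSO replicate 1 and Itga6 without RNA LPS replicate 1. Within replicates 1 and 2 alone, Itgb7, Scarb1, Lrp1 and Trem2 were not called (adjusted p 0.213, 0.0503, 0.182 and 0.0913, with lowest values over 14 alternatives of 0.000849, 8.3e-08, 1.28e-06 and 5.97e-10).

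**Figure D5:**
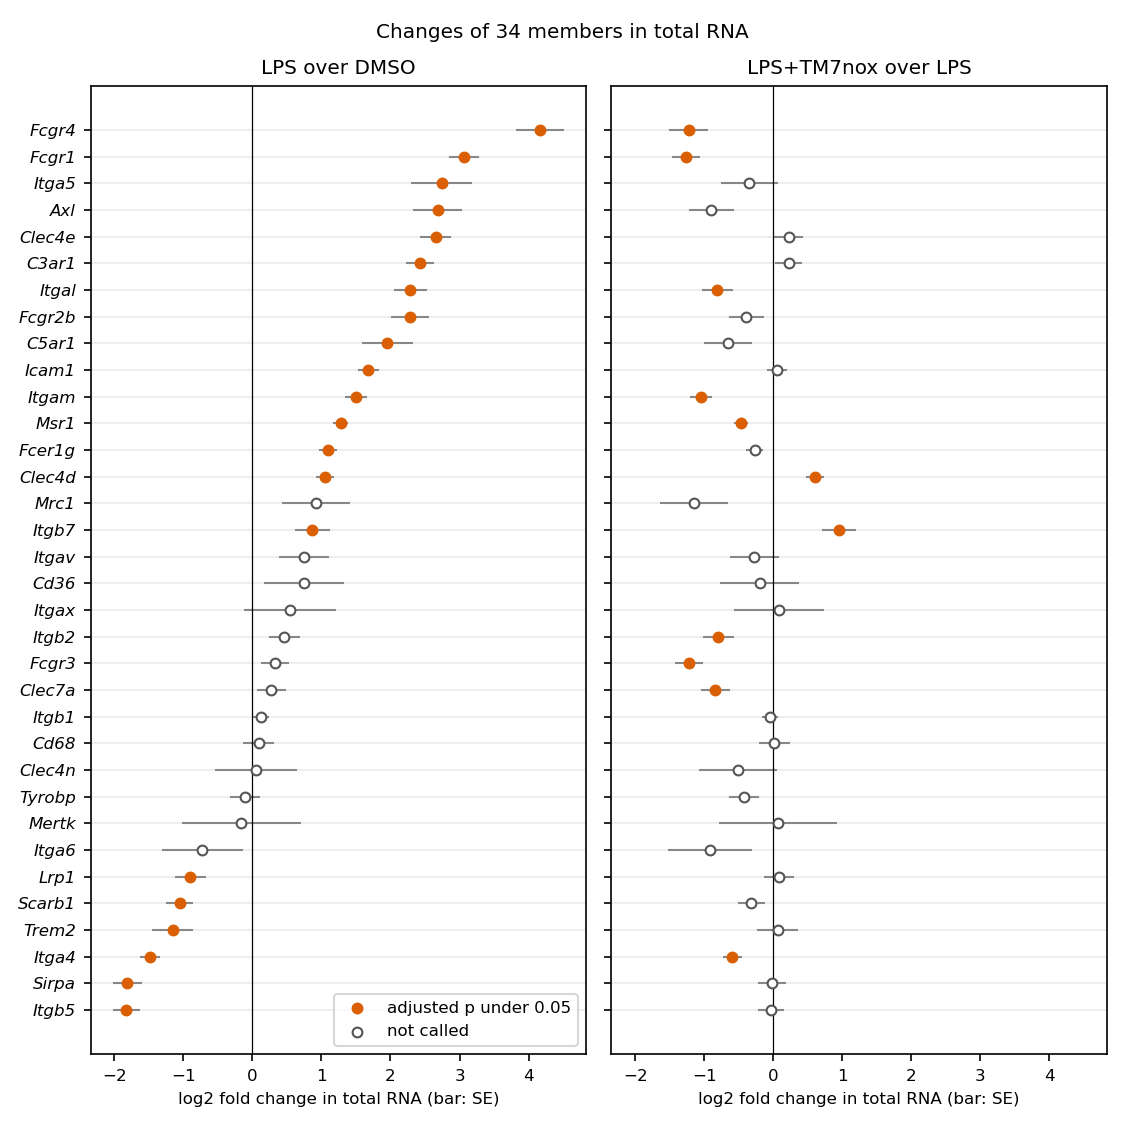
Log2 fold change of the 34 tested members in total RNA, for LPS over DMSO (left) and LPS+TM7nox over LPS (right), with the SE as a bar and filled points for an adjusted p under 0.05. Members are in the order of the LPS change, from Fcgr4 at 4.16 to Itgb5 at -1.82, and the 2 panels share the LPS libraries.

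Adding TM7nox to LPS was compared with LPS alone to describe what the compound changed. Fcgr1, Fcgr3 and Fcgr4, the leukocyte integrin chains Itgam, Itgal and Itgb2, Itga4, Clec7a and Msr1 were lower, and Itgb7 and Clec4d were higher. Of 34 members, 2 were called higher and 9 lower (32.4%), against 13.8% of all genes, with higher calls at 5.88% of the members and 7.37% of all genes and lower calls at 26.5% and 6.4%. The libraries of the 11 called members did not overlap, nor did those of 92.8% of all called genes. The median log2 fold change was -0.34 for the members and -0.00 for all genes. The count depended on the replicates: 1 member (Fcgr1) was called in replicates 1 and 2 alone and 19 in replicates 3 and 4 alone. The calls over all genes moved likewise, from 1704 to 168 and 3489. This comparison uses the same LPS libraries as the one before, so the values are given side by side.

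Fcgr1 stood at 301, 280, 335 and 371 CPM in LPS and at 111, 118, 139 and 168 CPM in LPS+TM7nox, clear of each other. It fell by 1.26 on the log2 scale (SE 0.20, adjusted p 0.000957), and stayed above DMSO (1.80, adjusted p 7.46e-06). Fcgr4 stood at 17.6, 22.1, 15.6 and 16.5 CPM in LPS+TM7nox, against 32.1 to 54.9 in LPS, and fell by 1.23 (SE 0.29, adjusted p 0.0108). Fcgr3, a low-affinity activating receptor, had 16.6, 14.4, 17.7 and 17.1 CPM in LPS and 8.16, 6.17, 7.53 and 6.42 in LPS+TM7nox, and fell by 1.22 (SE 0.21, adjusted p 0.00131). Against DMSO it was lower (-0.88, adjusted p 0.00298), with libraries that overlapped at 7.67 and 8.16 CPM. Fcgr2b (-0.39, adjusted p 0.38), Fcer1g (-0.27, adjusted p 0.187) and Tyrobp (-0.43, adjusted p 0.228) were not called.

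Both chains of complement receptor 3 were lower with the compound. Itgam stood at 51.1, 46.9, 38.5 and 37.8 CPM in LPS and at 24.9, 17.8, 19.7 and 22 in LPS+TM7nox, a fall of 1.05 (SE 0.16, adjusted p 0.000597). Itgb2 stood at 348, 315, 258 and 258 CPM and at 233, 205, 125 and 115 CPM, a fall of 0.80 (SE 0.22, adjusted p 0.0281). Itgal fell by 0.81 (adjusted p 0.0264), Clec7a by 0.84 (0.0169), Itga4 by 0.59 (0.0113) and Msr1 by 0.46 (0.00851). Itga4 was thus lower in LPS and lower again with TM7nox, at 248, 293, 249 and 241 CPM. Itgb7, the beta chain that pairs with α4 in gut homing, stood at 9.41, 5.87, 5.01 and 5.64 CPM in LPS and at 16.9, 10.6, 11.1 and 11.5 CPM in LPS+TM7nox, a rise of 0.95 (SE 0.24, adjusted p 0.017). Clec4d rose from 120, 129, 110 and 120 CPM to 183, 179, 175 and 189 CPM, by 0.60 (SE 0.13, adjusted p 0.00574). Both groups of each were apart. Sirpa (-0.02), Itgb5 (-0.04), Icam1 (0.06) and C3ar1 (0.22) were not called, with adjusted p of 0.962, 0.933, 0.849 and 0.518.

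Some of these calls turned on single libraries. Itgal and Itgb2 were not called without any 1 of RNA LPS replicates 1 or 2 or RNA LPS+TM7nox replicates 3 or 4 (adjusted p 0.065 to 0.0834 and 0.0708 to 0.0873, in ranges of 6.4e-05 to 0.197 and 1.71e-05 to 0.239 over 14 alternatives). Itgb7 was not called without RNA LPS replicate 2, 3 or 4 (0.055 to 0.0564, in a range of 0.000358 to 0.42), nor Clec7a without RNA LPS+TM7nox replicate 4 (0.0552, in a range of 0.000484 to 0.101). Fcgr2b was called without RNA LPS+TM7nox replicate 1. With no filter on low counts, Msr1 lost its call (its adjusted p ranged from 1.04e-05 to 0.465 over 14 alternatives), and Axl, Mrc1 and C5ar1 gained one. The replicate block called 16 members and 3091 of all genes, the members being the 11 and Itga5 (-0.33), Fcer1g (-0.26), Tyrobp (-0.38), Axl (-0.94) and Mrc1 (-1.30), with adjusted p of 0.00932, 0.0432, 0.0496, 0.001 and 0.0301. Over their 14 alternatives these 5 ranged from 0.000738 to 0.991.

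Against DMSO, LPS+TM7nox left 15 members higher and 9 lower (70.6%), against 47.3% of all genes, 23.7% higher and 23.6% lower, with a median of 0.46 against -0.01. The largest rises were those of Fcgr4 (2.94, SE 0.33), Clec4e (2.88, SE 0.22) and C3ar1 (2.65, SE 0.21), and the largest falls those of Itga4 (-2.08, SE 0.14), Itgb5 (-1.86, SE 0.19) and Sirpa (-1.83, SE 0.21), with the libraries apart in each. Clec4e stood at 75.9, 84.6, 44.4 and 39.9 CPM in DMSO, 349, 448, 387 and 391 in LPS and 453, 490, 430 and 460 in LPS+TM7nox. C3ar1 stood at 42.4, 25.2, 23.8 and 20.9, at 176, 150, 137 and 144 and at 163, 187, 179 and 178 CPM in the same order. For both, the LPS treatments overlapped each other and not DMSO. The weaker calls of Itgam (0.45, adjusted p 0.0317), Clec7a (-0.57, 0.0425) and Itga6 (-1.65, 0.0396) were each lost without RNA DMSO replicate 1 (0.0632, 0.0982 and 0.0605, in ranges of 0.00547 to 0.214, 0.00216 to 0.126 and 0.00262 to 0.32). Other single libraries also ended them: RNA DMSO replicate 3 and RNA LPS+TM7nox replicate 4 for Itgam and Itga6, and RNA DMSO replicate 2 and RNA LPS+TM7nox replicates 2 and 3 for Clec7a and Itga6. Clec7a lost its call as well without RNA LPS+TM7nox replicate 1 or 4. Tyrobp and Cd36 were called without RNA DMSO replicate 1. With the block, Itgav (0.46), Itgax (0.55), Itgb2 (-0.38), Tyrobp (-0.49) and Cd36 (0.69) were called too, with adjusted p between 1.72e-05 and 0.985 over the alternatives of these 5. The pair of replicates 1 and 2 alone called 17 members and that of 3 and 4 alone 28, while the calls over all genes went from 5850 to 2246 and 7925.

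In anti-HuR RIP, LPS against DMSO called 19 members higher and 4 lower (67.6%), against 44.7% of 13614 genes, 23.5% higher and 21.2% lower, with a median log2 fold change of 1.2 against -0.00. Fcgr4 rose from 45.2, 12.3, 12 and 5.12 CPM to 820, 559, 328 and 114 CPM, by 4.59 (SE 0.70, adjusted p 7.4e-05), and by 5.48 without RIP DMSO replicate 1. Fcgr1 rose from 23.8, 12, 22.9 and 15.2 CPM to 284, 212, 244 and 205 CPM, by 3.66 (SE 0.24, adjusted p 7.24e-09). Itga5 rose from 40.0, 34.4, 17.4 and 17.8 CPM to 417, 337, 233 and 259 CPM, by 3.48 (SE 0.34, adjusted p 6.86e-07). These 3 also led the rise in total RNA, and no LPS library of theirs fell within the DMSO range. Sirpa fell by 1.86 (SE 0.21), from 5258, 4458, 6277 and 5786 CPM to 1567, 1772, 1527 and 1189 CPM, Itga4 by 1.41 (SE 0.19) and Itgb5 by 0.99 (SE 0.26). Itga4 went from 873, 1165, 1522 and 1161 CPM to 443, 527, 456 and 375 CPM, and Itgb5 from 19.9, 11.5, 13 and 12.8 CPM to 8.93, 6.57, 4.45 and 9.15 CPM, both without overlap. Itga6 fell by 1.30 (adjusted p 0.0335) and lost its call without RIP DMSO replicate 1 (0.0996) or 2 (0.0618) or RIP LPS replicate 3 (0.0836) or 4 (0.0728), in a range of 3.99e-05 to 0.0996. Fcgr3 (0.77) and Clec7a (0.72) were called at an adjusted p that rounds to 0.05 (ranges of 0.00606 to 0.245 and 0.00311 to 0.198 over 14 alternatives), and the libraries overlapped for Fcgr3 and not for Clec7a. Fcgr3 kept its call among the fits that left out 1 library only without RIP LPS replicate 2 or RIP DMSO replicate 4, and Clec7a only without RIP DMSO replicate 2. Both lost it with DESeq2's size factors and within either pair of replicate numbers.

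The RIP count with the replicate block was 32, while the calls over all genes went from 6090 to 8073. It added Itgav (0.71), Itgax (0.92), Tyrobp (0.45), Cd36 (1.44), Scarb1 (-0.40), Lrp1 (-0.56), Cd68 (0.74), Trem2 (-0.36) and Clec4n (1.42), whose adjusted p ranged from 4.82e-06 to 0.671 over 14 alternatives. Leaving out 1 library called Cd36, Cd68 and Clec4n (without RIP DMSO replicate 1), Itgax (RIP DMSO replicate 2), Scarb1 (RIP LPS replicate 2) or Lrp1 (RIP DMSO replicate 3 or RIP LPS replicate 4). Replicates 1 and 2 alone called 22 members and replicates 3 and 4 alone 24, against 3392 and 5537 over all genes.

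With TM7nox against LPS, RIP had 1 member called higher and 9 lower (29.4%), against 16.2% of all genes, 8.64% higher and 7.61% lower, with a median of -0.45 against -0.03. Fcgr1 fell from 284, 212, 244 and 205 CPM to 70.8, 71.0, 67.9 and 49.2 CPM, by 1.92 (SE 0.22, adjusted p 3.92e-05). Tyrobp fell from 59.7, 56.7, 54.8 and 70.4 CPM to 40.2, 27.3, 32.4 and 17.8 CPM, by 1.08 (SE 0.20, adjusted p 0.00186). Clec7a fell from 9.80, 8.61, 7.82 and 7.24 CPM to 4.84, 4.00, 5.35 and 1.62 CPM, by 1.11 (SE 0.29, adjusted p 0.0167), and was not called without RIP LPS replicate 1 (0.0554, in a range of 0.000412 to 0.151). None of these 3 groups overlapped. Fcgr3 (-1.47), Itgb2 (-1.02), Itgam (-0.98), Scarb1 (-0.78), Itgal (-0.69) and Icam1 (-0.66) were also lower, and Itgb7 was the higher one (1.34, adjusted p 0.0017, on 2.31 to 3.79 and 6.59 to 8.55 CPM). Itgal, at an adjusted p of 0.048, lost its call without any 1 of the 4 RIP LPS libraries or of RIP LPS+TM7nox replicates 1, 3 and 4 (0.0524 to 0.133, in a range of 0.00453 to 0.333).

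With the replicate block this RIP count was 20, with 3 members higher and 17 lower, while the calls over all genes went from 2212 to 4577. It added Itga5 (-0.77), Itgb5 (-0.72), Fcgr2b (-0.48), Fcgr4 (-0.82), Fcer1g (-0.71), Msr1 (-0.33), Cd68 (-0.58) and Mrc1 (-1.09) among the lower and Itgb1 (0.46) and Clec4d (0.55) among the higher. The adjusted p of these 10 ranged from 0.00026 to 0.83 over 14 alternatives. Itgb5 was also called without RIP LPS+TM7nox replicate 1 or RIP LPS replicate 3. Replicates 1 and 2 alone called 4 members and replicates 3 and 4 alone 9, against 789 and 1070 over all genes.

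Whether recovery relative to total RNA changed with treatment was tested by an interaction over the 24 libraries. By edgeR, 0 of 34 members were called for LPS (all genes 0.0419%, with 0.014% higher and 0.028% lower) and 0 for TM7nox (all genes 0.00699%, each of them higher). On simulated counts the interaction with LPS recovered 17% of 2-fold and 68% of 4-fold changes. The lack of calls therefore does not show that recovery was unchanged. At an unadjusted p under 0.05 there were 3 members for LPS (Itgb2, Itgb5 and Scarb1) and 3 for TM7nox (Itgb1, Itgb5 and Icam1). DESeq2 called 0 in both, with 3 and 2 at an unadjusted p under 0.05. A block of the replicate number within each assay, chosen after the data had been seen, called Itga5 (0.66, adjusted p 0.0335) and Itgb2 (0.78, adjusted p 0.0472) for LPS, in ranges of 0.0335 to 1.0 and 0.0472 to 1.0 over 23 alternatives, and 0 for TM7nox. That fit called 148 of all genes for LPS, in place of 6, and 2 for TM7nox, in place of 1. The median interaction was 0.26 for LPS, against 0.02 for all genes, and 0.02 for TM7nox, against 0.00.

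Same-numbered libraries also give 4 RIP to RNA ratios per treatment, shown here as a description. In LPS the ratio was above that of DMSO in 4 of 4 pairs for 15 of 33 members with all ratios defined (45.5%) and below it for 0, against 23.8% and 7.36% of 11149 genes. For 8 of the 15 the ratios of the treatments did not overlap (24.2%, against 7.9% of all genes): Itga5, Itgb2, Itgb5, Itgb7, Scarb1, Trem2, Clec4n and C5ar1. C5ar1 had 12.9, 12.8, 12.3 and 16.3 in DMSO and 19.8, 23.2, 22.6 and 20.8 in LPS, and Itgb2 had 0.243, 0.177, 0.212 and 0.211 and then 0.349, 0.302, 0.430 and 0.484. None of the 8 was called by the interaction without a block, and Itga5 and Itgb2 were with the block within each assay. With TM7nox the ratio was above that of LPS in 4 of 4 pairs for 7 of 34 members (20.6%) and below it for 6 (17.6%), against 19.1% and 13.7% of 12176 genes, and only those of Itgb1 and Itga4 did not overlap, both higher.

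Icam1 was among the 3 members with an unadjusted p under 0.05 in the interaction with TM7nox. Its RIP to RNA ratio was 0.666, 1.09, 0.927 and 0.852 in LPS and 0.453, 0.682, 0.532 and 0.518 in LPS+TM7nox, and the 2 sets overlapped. The log2 difference was -0.71 (SE 0.20, unadjusted p 0.00132, adjusted p 0.871 in a range of 0.116 to 1.0 over 23 alternatives, lower in 4 of 4 same-numbered pairs), which failed the correction. In total RNA Icam1 stood at 0.06 and in RIP at -0.66. Itgb1 had a ratio of 2.46, 2.56, 2.92 and 2.03 in LPS and 3.27, 4.01, 3.87 and 3.43 in LPS+TM7nox, which did not overlap. Its log2 difference of 0.52 (SE 0.18, unadjusted p 0.00655, adjusted p 0.871 in a range of 0.157 to 1.0, higher in 4 of 4 pairs) also failed the correction.

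Other genes of these pathways were taken from lists of integrin chains, adhesion adaptors, ligands, further receptors and phagocytic signalling genes. In total RNA, LPS called 10 of 27 tested signalling genes higher and 7 lower, where all genes had 20.2% higher and 21.7% lower. The shares of all genes with TM7nox against LPS were 7.37% and 6.4%, and both pairs of shares apply to each list below. Among the higher were the kinases Src at 4.49, Fgr at 2.64 and Lyn at 2.22, and Syk, which docks on phosphorylated ITAMs, at 0.79. Inpp5d, a lipid phosphatase that limits Fc receptor signals, was lower at -1.11. With TM7nox against LPS, 2 were higher and 8 lower. Among the lower, Fgr was at -1.33, Lyn at -0.65, the phosphatase Ptpn6 at -0.83 and the kinase subunit Pik3cd at -1.21, while Syk (0.67) and its adaptor Card9 (0.71) were higher.

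Of 18 adhesion adaptors tested, 8 were higher and 1 lower in LPS, among them Zyx (1.98), Rap1b (1.91) and the talin gene Tln1 (0.74), and 1 was higher and 4 lower with TM7nox, with Zyx at -0.99. Of 13 ligands, 5 were higher and 2 lower in LPS, including the opsonin gene C3 (2.80) and Cd47 (1.62), the ligand of SIRPα, and 0 were higher and 3 lower with TM7nox. Of 17 further receptors, 8 were higher and 1 lower in LPS, among them Siglec1 (2.72) and Cd14 (1.45), and 1 was higher and 3 lower with TM7nox, with Siglec1 at -1.2 and Cd14 at -0.66. Of the 4 tested genes on the list of other integrin chains, only Itgb8 was called in LPS; it had no counts in DMSO RNA and stood at 1.41 CPM in LPS. In RIP over RNA in DMSO, where all genes had 37% higher and 33.4% lower, the counts were 2 higher and 5 lower of 13 ligands, 4 and 5 of 17 further receptors, 1 and 10 of 19 adaptors, 1 and 1 of 5 other integrin chains and 8 and 16 of 27 signalling genes. Cd47 (3.86) and the C5a receptor C5ar2 (3.72) were also far above total RNA, as Sirpa and C5ar1 were, while C3 (-2.71) and Cd14 (-2.17) were below it.

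Replicates 1 and 2 differed from replicates 3 and 4 for certain members in every assay and treatment. Itga5, Itga6, Itgav, Itgax, Fcgr4 and Cd36 had both of replicates 1 and 2 above both of replicates 3 and 4 in 6 of 6 groups of RNA and RIP libraries, and Axl had them below in 6 of 6. This is 17.6% of the 34 tested members above and 2.94% below, against 1.36% and 1.58% of 14311 genes tested. The members and their order are a description, with no test. The mean of replicates 1 and 2 was 1.66 to 4.50 times that of replicates 3 and 4 for Cd36, 2.18 to 4.40 times for Itgax and 1.85 to 3.18 times for Itgav. For Axl the ratio was 0.411 to 0.703. Each group holds 2 libraries of either kind. The labels give no batch for them. The part of this difference in the results was not tested beyond the fits given above, within each pair of numbers and with the replicate block.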

How the data were processed

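Total RNA, anti-HuR RIP and control IgG libraries (12, 12 and 3) were analysed from 1 table in which the authors deposited raw counts per gene, with no normalization. The submitters' processing notes name FastQC 0.11.9, STAR, HTSeq and DESeq2 and the build GRCm39, with no role or order. Which annotation release was used, and whether strand was, is not given in the sources used here, so reads of genes that overlap on the other strand cannot be told apart. The members, gene lists and tests were chosen with earlier results of these data known.

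The tests were run in R 4.3.3 on these counts by edgeR 4.0.16 (quasi-likelihood F test, two-sided, TMM scaling, filterByExpr with a minimum count of 10, Benjamini-Hochberg adjustment over all genes tested). The 12 RNA libraries were fitted together, then the 12 RIP libraries, then all 24 for RIP over RNA and its change, and 15 libraries for anti-HuR against IgG with treatment as a covariate. Exon lengths, overlaps and 3′ UTRs came from GENCODE M39 (36 of 36 members and 93.2% of all genes matched). In each comparison the members named first were up to 3 called per direction with the largest log2 fold change and a mean of at least 5 CPM. Every library's value is given for some of these, in RIP over RNA for DMSO only, and other members are named by role. Same-numbered libraries deviated together from their group means in 12 of 12 pairs in RNA (r 0.194 to 0.449) and 12 of 12 in RIP (0.262 to 0.543). Some libraries of different numbers did so too, such as RNA LPS replicate 3 with RNA LPS+TM7nox replicate 4 (0.366). Others went opposite ways, such as RNA LPS replicate 1 with RNA LPS+TM7nox replicate 4 (-0.381). The number was entered as a block only in alternative fits, and the main fits took no account of it. In the fit of all 24 libraries, the 60 same-numbered pairs within and across assays had r of 0.0130 to 0.505. The lowest was between assays, for RNA DMSO replicate 1 with RIP LPS+TM7nox replicate 1. On simulated counts, 4-fold changes were recovered in 85% of cases for RNA LPS against DMSO (12369 genes), 82% for RIP LPS against DMSO (13614 genes), 68% for the interaction with LPS (14311 genes) and 82% for anti-HuR against IgG (14973 genes), and 2-fold changes in 62%, 45%, 17% and 47%. Apart from 200 changed genes, the simulated libraries of each fit shared 1 mean per gene. Unlike the data, they held no other differences between assays, treatments or replicate numbers. Alternatives were DESeq2 1.42.0 and its size factors, no filter, the replicate block, each pair of replicate numbers alone, and leaving out each library. Values are read counts without stated molecular identifiers. Some genes and sequences are not reported here.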

Additional observations from a re-analysis of the deposited data

Results flagged for a closer look

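Among 206 groups of 4 libraries, 16 held 1 library far from the other 3 for a member; chance flags about 1 in 20 groups. In total RNA of LPS+TM7nox, replicate 1 was high for Itgb5 (13.8 CPM, the others 8.29 to 8.96), Itgb7 (16.9 CPM, the others 10.6 to 11.5) and Sirpa (173 CPM, the others 92.9 to 103), and replicate 2 was high for Itga4 (293 CPM, the others 241 to 249). In total RNA of LPS, replicate 1 was low for Tyrobp (89.3 CPM, the others 155 to 168), and replicate 2 was high for Msr1 (397 CPM, the others 394), where the whole range is small. In total RNA of DMSO, replicate 1, the shallowest library, was high for Trem2 (139 CPM, the others 83.9 to 91.8) and Clec4n (6.57 CPM, the others 0.965 to 1.83). In DMSO RIP, replicate 2 was high for Itgb3 (0.331 CPM, near the floor) and replicate 3 for Mrc1 (1.24 CPM, the others 0.463 to 0.552). In LPS RIP, replicate 2 was high for Itgal (42.1 CPM, the others 30.2 to 31.9) and replicate 1 for Clec4d (114 CPM, the others 79.3 to 84.3). In LPS+TM7nox RIP, replicate 1 was high for Itgam (7.90 CPM, the others 6.63 to 6.75) and Clec4n (2.17 CPM, the others 0.540 to 0.759), replicate 3 was high for Mertk (0.679 CPM, the others 0.0677 to 0.170) and replicate 4 was low for Fcgr1 (49.2 CPM, the others 67.9 to 71.0).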

How the results depend on the processing

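No member changed direction while called, and 5741 single-member values kept their side of the threshold under an alternative, against 161 that gained a call and 147 that lost one. Replicates 1 and 2 alone called 1 member for TM7nox against LPS in RNA in place of 11, and 4 in RIP in place of 10, while replicates 3 and 4 alone called 19 in RNA. The cause was not tested. With the replicate block, TM7nox against LPS called 20 members in RIP and 16 in RNA, and LPS against DMSO 32 and 26. Blocked counts of RIP over RNA were 28 (gaining Axl), 27 (Itgb5, Fcgr2b, Axl and Clec4d) and 31 (Fcgr2b and Clec4d), with all genes at 10719, 9867 and 10626 in place of 10075, 9109 and 10006. The block against IgG called 30 members (all genes 9761 in place of 10194), gaining Itga4, Fcgr2b, Msr1 and Axl and losing Mertk, and the change by LPS gave 2 members with the block within each assay, chosen after seeing the data, and 0 with a shared block. Leaving out 1 library gave 21 to 22 members for LPS and 8 to 12 for TM7nox in RNA, 21 to 24 against DMSO, 20 to 23 and 8 to 10 in RIP, 25 to 27, 22 to 23 and 27 to 30 for RIP over RNA, 25 to 29 against IgG, and 0 to 0 for both interactions. Over all genes, in the same order, these fits called 4427 to 5585, 1199 to 1605, 5131 to 6209, 5145 to 6294, 1495 to 2210, 9568 to 10429, 8386 to 9253, 9591 to 9967, 9258 to 10306, 4 to 11 and 1 to 3. Single libraries also ended the calls of RIP over RNA of Itga5 in LPS (adjusted p 0.0639 to 0.169 in 5 fits) and of Msr1 and Mrc1 in LPS+TM7nox (0.0642 to 0.106 and 0.057 to 0.101). DESeq2's size factors moved the median log2 of all genes by 0.16, 0.18 and 0.22 in RIP over RNA and by 0.13 against IgG. With that scaling Itga4, Axl, Msr1, Scarb1 and Lrp1 gained calls and Clec4n, Itga5, Mrc1, Icam1, Fcgr3 and Clec7a lost theirs in 1 or more comparisons. With no filter on low counts, Itga4 and Msr1 lost their calls of RIP over RNA in LPS+TM7nox and Icam1 and Scarb1 those against IgG. Replicates 1 and 2 alone could not be fitted against IgG, whose libraries are all replicate 3. Itgb3 and Marco, with at most 17 counts in any RNA group, were below what this depth can compare.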
